A study of Mus musculus with 16 samples.

Results

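The replication-dependent linker histone genes Hist1h1a, Hist1h1b, Hist1h1c, Hist1h1d and Hist1h1e were followed over 4 amounts of dietary valine in total RNA and in ribosome-protected fragments (RPF), the pieces of mRNA that ribosomes shield from nuclease. They were chosen by symbol, and all 5 were found among the 12012 genes of the table and passed the filter on low values in both fractions. The leukaemia was a mouse T-ALL (T cell acute lymphoblastic leukaemia) driven by NOTCH-delta E, an active form of the NOTCH receptor, passed on a second time into mice (strain C57BL/6), and its GFP-marked cells were sorted out of the spleen. Mice had spent 3 weeks on food with 8 g/kg valine (the control), without valine (0 g/kg), or with 0.4 or 0.8 g/kg. The treatment text states the 0.4 and 0.8 amounts per litre of drinking water, and the per-kg doses of the sample characteristics are used here. Every group, controls included, thus carried the same kind of NOTCH-delta E leukaemia. Of the 16 libraries, each diet and fraction had 2, numbered T-ALL 2 and T-ALL 3. Nothing in the labels says whether the numbers stand for separate tumours or separate mice. A difference given for T-ALL 2 or T-ALL 3 is thus one between libraries that share a number, and not known to be one within a tumour. The p-values here therefore reflect the spread among these samples alone, which may be technical.

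Histone H1 proteins bind the DNA where it enters and leaves the nucleosome and help to pack nucleosomes into denser chromatin. The genes studied here encode the somatic variants whose synthesis is tied to DNA replication, and dividing cells such as leukaemia cells make them in S phase together with the core histones H2A, H2B, H3 and H4. Their mRNAs typically end in a stem-loop, bound by SLBP, instead of a poly(A) tail. RefSeq now calls the genes H1f1 (Hist1h1a), H1f5 (Hist1h1b), H1f2 (Hist1h1c), H1f3 (Hist1h1d) and H1f4 (Hist1h1e). All lie on mouse chromosome 13 (GRCm38.p6): Hist1h1b from 21779832 to 21780625, Hist1h1d from 23555032 to 23555807, Hist1h1e from 23621777 to 23622558, Hist1h1c from 23738807 to 23739531, and Hist1h1a from 23763668 to 23764412. Hist1h1b therefore stood apart from the other four, which lie close together.

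The 150 bases before each RefSeq gene start are shown because these genes are known for shared promoter elements and most of them had similar values over the diets. Capitals mark matches to the H1 box, searched as AAACACA, to the CCAAT box, searched by the letters CCAAT, and to the TATA box, searched as TATAAA. Both strands were searched, a match on the opposite strand is in capitals as it reads on the printed strand, and no matches overlapped. The sequences are RefSeq's, 5′ to 3′ on the strand of the gene. They come from chr13:23763518-23763667 (plus strand) for Hist1h1a, chr13:21780626-21780775 (minus) for Hist1h1b, chr13:23738657-23738806 (plus) for Hist1h1c, chr13:23554882-23555031 (plus) for Hist1h1d and chr13:23622559-23622708 (minus) for Hist1h1e.
Hist1h1a: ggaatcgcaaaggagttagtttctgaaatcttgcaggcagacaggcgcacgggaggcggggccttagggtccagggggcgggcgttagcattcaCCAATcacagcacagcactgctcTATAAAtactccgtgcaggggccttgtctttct
Hist1h1b: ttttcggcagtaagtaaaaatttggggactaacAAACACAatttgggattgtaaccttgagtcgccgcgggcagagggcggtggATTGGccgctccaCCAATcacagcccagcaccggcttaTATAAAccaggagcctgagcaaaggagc
Hist1h1c: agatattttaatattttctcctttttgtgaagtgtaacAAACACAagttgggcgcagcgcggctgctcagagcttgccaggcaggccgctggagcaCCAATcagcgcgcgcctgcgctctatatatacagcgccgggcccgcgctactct
Hist1h1d: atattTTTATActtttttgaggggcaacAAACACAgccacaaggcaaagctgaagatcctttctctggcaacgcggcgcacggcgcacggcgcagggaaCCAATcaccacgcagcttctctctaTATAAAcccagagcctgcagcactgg
Hist1h1e: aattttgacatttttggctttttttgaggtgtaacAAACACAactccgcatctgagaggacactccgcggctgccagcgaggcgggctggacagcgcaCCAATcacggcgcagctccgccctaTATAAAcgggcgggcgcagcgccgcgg

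The H1 box letters were found in 4 of the 5 windows, at positions -122 to -106 from the start, and Hist1h1a was the one without a match. In comparison, 3.53% of 32851 mouse promoter windows of the same length held AAACACA on either strand, and so did 3 of 51 windows of core histone genes. CCAAT was found in all 5 windows, at positions -66 to -47, against 24.5% of all windows and 42 of 51 core histone windows. TATAAA was found in 4 of 5, all but Hist1h1c, against 7.57% of all windows and 19 of 51 core histone windows. All 3 motifs were present for Hist1h1b, Hist1h1d and Hist1h1e, and in 0.137% of all windows. These are matches of letters and do not show binding.

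**Figure D1:**
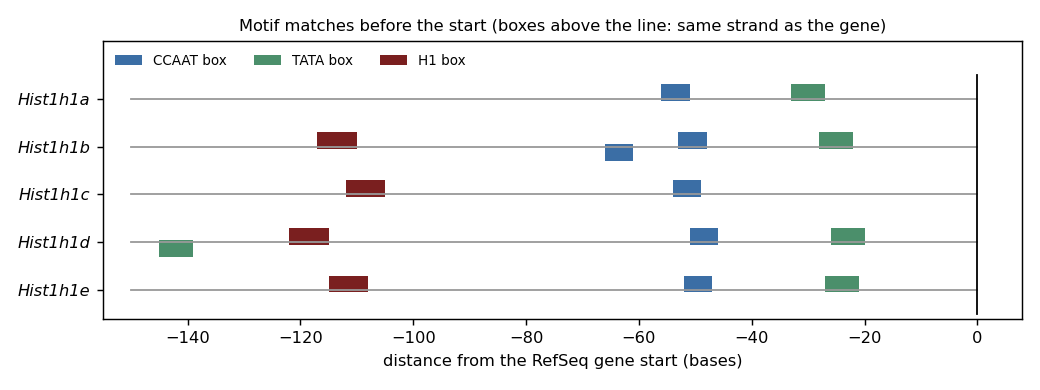
Matches to the H1 box, the CCAAT box and the TATA box in the 150 bases before the start of each H1 gene, with distance from the RefSeq gene start in bases on the x axis. Boxes above a line lie on the strand of the gene and boxes below it on the opposite strand; Hist1h1a has no H1 box match, and the matches of the other 4 genes lie at similar distances.

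The deposited values are in FPKM, which sets the fragments of a gene against its length and the size of the library. Whole reads could be recovered from their steps, and summed to between 41848 and 205545 in RPF and between 364685 and 1269364 in total RNA. The H1 genes were well covered in total RNA, with 290 to 3135 reads per gene and library. In RPF they had 85 to 1038 reads, apart from Hist1h1e with 23 to 154. The coding sequences of H1 genes resemble one another, and how the authors assigned reads that match more than one gene is not given in the sources used here, so the split of reads between single H1 genes is uncertain. Of 14 T cell markers 13 were in the table, each with reads on every diet in both fractions, and their summed level was 46.1 to 56.2 per 10000 total RNA reads over the 8 libraries.

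On the diet without valine, total RNA of 4 of the 5 H1 genes had its lowest values. For Hist1h1b, Hist1h1c, Hist1h1d and Hist1h1e, both libraries at 0 g/kg lay below all 6 other total RNA libraries, a pattern shown by 5.46% of the 10054 genes tested. Against the control libraries alone the same 4 of 5 did not overlap, as 20.3% of genes did on that side. The log2 differences from the control diet ran from -0.68 for Hist1h1c to -0.15 for Hist1h1a. None of them passed limma's test over all genes, and the libraries numbered T-ALL 3 lay further apart than those numbered T-ALL 2 for each of the 4 genes.

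Hist1h1c had 1230.4 FPKM in T-ALL 2 and 1057 in T-ALL 3 at 0 g/kg, against 1579 and 2126 at 8 g/kg, in total RNA. At 0.4 g/kg it had 2053 and 1674 FPKM, and at 0.8 g/kg 1797 and 2035 (T-ALL 2 first, as in the values that follow). The libraries without valine were thus the low ones, and those of the other three diets overlapped. The log2 difference at 0 against 8 g/kg was -0.68 ± 0.17 (SE; limma adjusted p = 0.40), with -0.36 in T-ALL 2 and -1.01 in T-ALL 3.

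Hist1h1d, the gene with the highest mean FPKM of the 5 in total RNA, had 1768 and 1335 FPKM at 0 g/kg and 2073 and 2859 at 8 g/kg. It had 2784 and 2242 at 0.4 g/kg, and 2208 and 2779 at 0.8 g/kg. The groups at 0 and 8 g/kg did not overlap, with a log2 difference of -0.66 ± 0.20 (limma adjusted p = 0.58), which was -0.23 in T-ALL 2 and -1.10 in T-ALL 3.

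Hist1h1b had 1802 and 1327 FPKM at 0 g/kg and 1931 and 2539.9 at 8 g/kg in total RNA. Between these doses it had 2542 and 2221 at 0.4 g/kg and 2052 and 2750.3 at 0.8 g/kg. The T-ALL 2 libraries at 0 and 8 g/kg were close, and the gap lay mainly in T-ALL 3: the log2 difference was -0.52 ± 0.20 (limma adjusted p = 0.70), with -0.10 in T-ALL 2 and -0.94 in T-ALL 3.

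Hist1h1e, the least abundant of the 5, had 1024 and 954 FPKM at 0 g/kg and 1096 and 1342 at 8 g/kg in total RNA. At 0.4 g/kg it had 1626 and 1412 FPKM and at 0.8 g/kg 1388 and 1565. Here the libraries on both intermediate diets were also above both control libraries. The log2 difference was -0.29 ± 0.13 at 0 g/kg (limma adjusted p = 0.77), 0.32 ± 0.13 at 0.4 g/kg and 0.28 ± 0.13 at 0.8 g/kg (limma adjusted p = 1 for both).

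Hist1h1a, a variant known from thymus and other lymphoid tissue, had differences of opposite sign between the libraries of either number. It had 1715 and 1089 FPKM at 0 g/kg and 1492 and 1551 at 8 g/kg in total RNA. At 0.4 g/kg it had 2270.3 and 1859 FPKM and at 0.8 g/kg 1407 and 1880.45. The 0 g/kg value was above the control in T-ALL 2 and below it in T-ALL 3, log2 differences of 0.20 and -0.51, so the groups overlapped and the fitted difference was -0.15 ± 0.22 (limma adjusted p = 0.94), which turned to 0.17 when the T-ALL 3 library of the valine-free diet was left out.

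**Figure D2:**
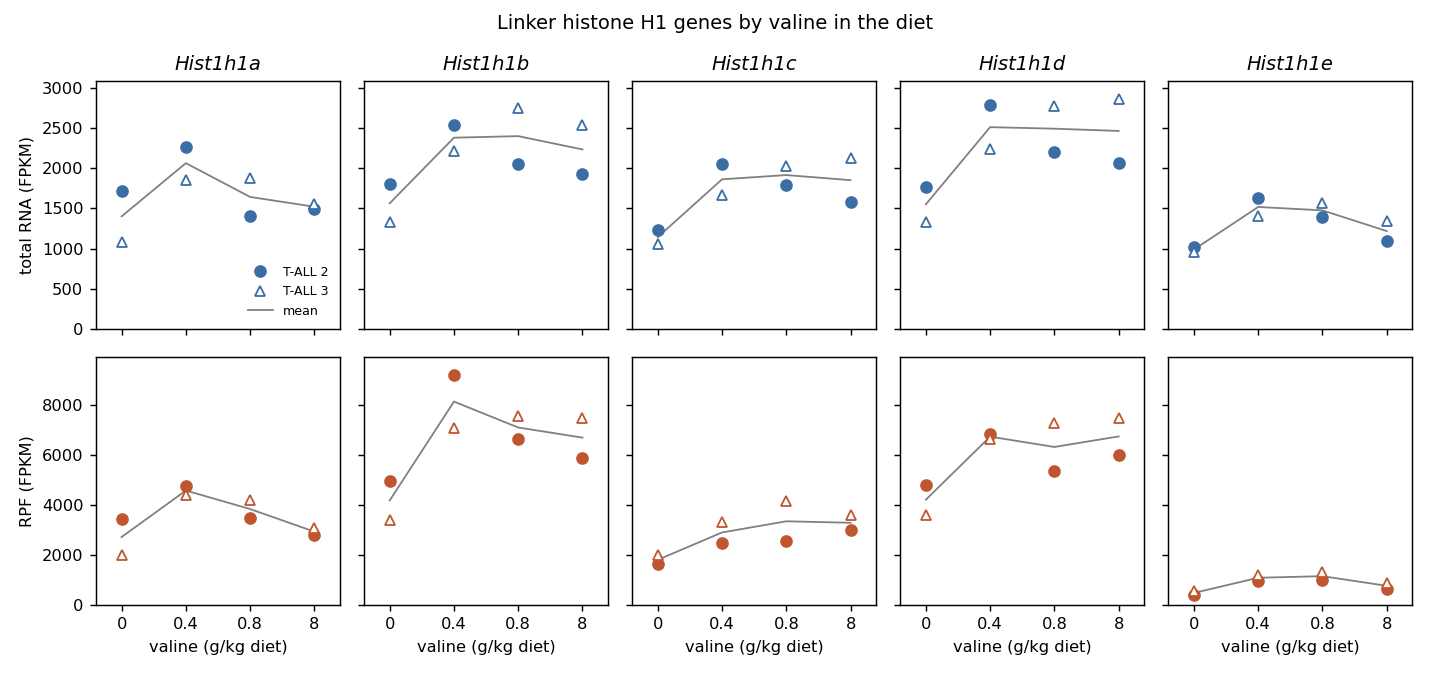
FPKM of each H1 gene (y axis, from 0) by valine in the diet in g/kg (x axis, equally spaced), for total RNA in the upper row and RPF in the lower row. Filled circles are T-ALL 2, open triangles T-ALL 3 and lines join the means of the 2 libraries; the 0 g/kg libraries are the lowest for all genes except Hist1h1a, and Hist1h1e is low in RPF.

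Set against the whole table, 3 of the 5 H1 genes stood at an unadjusted p under 0.05 by limma in total RNA at 0 against 8 g/kg, all on the lower side, where 4.02% of the genes tested stood. Adjusted over all genes 0 of 5 passed at 0.05 (0% of genes tested did), and with limma's voom on the recovered reads 0 of 5 passed as well. Against the mean of the 0.4 and 0.8 g/kg diets, a comparison without the control libraries, all 5 had negative log2 differences (51.3% of genes did): -0.72 ± 0.15 for Hist1h1c, -0.70 ± 0.18 for Hist1h1d, -0.62 ± 0.17 for Hist1h1b, -0.60 ± 0.12 for Hist1h1e and -0.42 ± 0.19 for Hist1h1a. Of these, 4 stood at an unadjusted p under 0.05, where 4.18% of genes stood on the lower side. By limma's adjusted p 0 of 5 passed, with 0.20 for Hist1h1e, the lowest, and 0.75 for Hist1h1a, the highest. At 0.4 and 0.8 against 8 g/kg the differences in total RNA were small and positive, 0.02 to 0.43 and 0.03 to 0.28. Hist1h1e at 0.4 g/kg stood at an unadjusted p under 0.05 by limma, on the side where 1.59% of genes stood, and at 0.8 g/kg 0 of 5 did (3.45% of genes in either direction). The limma F test for any difference among the 4 diets passed for 0 of 5 (0% of genes), with adjusted p from 0.65 to 0.98; at an unadjusted p under 0.05 were 4 of 5, all but Hist1h1a, and 479 of the 10054 genes.

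Ribosome footprints of the H1 genes had the same low group. In RPF both libraries at 0 g/kg lay below all 6 other RPF libraries for Hist1h1b, Hist1h1c, Hist1h1d and Hist1h1e, as they did for 2.79% of the 9718 genes tested, and below both control libraries for the same 4, as for 11.7% of genes. The log2 differences from the control diet were between -0.87 and -0.68 for these 4 genes and -0.16 for Hist1h1a. The limma test over all genes passed none of them (0% of genes passed), and 0 passed with voom.

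In RPF, Hist1h1c had 1622 and 1985 FPKM at 0 g/kg, 2482 and 3320.2 at 0.4 g/kg, 2549 and 4150.2 at 0.8 g/kg, and 2987 and 3592 at 8 g/kg. Taken by number the differences at 0 against 8 g/kg were -0.88 and -0.86, and the fitted value was -0.87 ± 0.35 (SE; limma adjusted p = 0.66). It was the single H1 gene at an unadjusted p under 0.05, where 2.22% of genes stood on the lower side.

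Hist1h1b and Hist1h1d had the highest deposited footprint levels, an order that depends on the gene length used for Hist1h1c. Hist1h1b had 4975 and 3394 FPKM at 0 g/kg, 9207 and 7093 at 0.4 g/kg, 6661 and 7561 at 0.8 g/kg, and 5902 and 7508 at 8 g/kg in RPF. Hist1h1d had 4819 and 3612 FPKM at 0 g/kg, 6833 and 6656 at 0.4 g/kg, 5370.04 and 7291 at 0.8 g/kg, and 6008 and 7498 at 8 g/kg. For both genes the T-ALL 3 library at 0 g/kg was the lowest of the 8 and its T-ALL 2 partner the second lowest. The log2 differences at 0 against 8 g/kg were -0.70 ± 0.34 and -0.69 ± 0.32 (limma adjusted p = 0.78 and 0.76), smaller in T-ALL 2 (-0.25 and -0.32) than in T-ALL 3 (-1.15 and -1.05).

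Hist1h1e had 401 and 547 FPKM at 0 g/kg, 955 and 1215 at 0.4 g/kg, 982 and 1313 at 0.8 g/kg, and 648 and 875 at 8 g/kg in RPF. The diets did not overlap at 0, at 8, and at the 0.4 and 0.8 amounts together, the order also seen in its total RNA. The log2 difference was -0.68 ± 0.33 at 0 against 8 g/kg (limma adjusted p = 0.76) and -1.24 ± 0.28 at 0 against the mean of 0.4 and 0.8 g/kg (limma adjusted p = 0.71). These values rest on few reads, 27 and 37 at 0 g/kg and 23 and 53 at 8 g/kg.

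Hist1h1a had 3441 and 1998 FPKM at 0 g/kg, 4755 and 4411 at 0.4 g/kg, 3468 and 4212 at 0.8 g/kg, and 2791 and 3076 at 8 g/kg in RPF. As in its total RNA, the library without valine was above the control in T-ALL 2 and below it in T-ALL 3, 0.30 and -0.62 on the log2 scale. The fitted difference was -0.16 ± 0.34 (limma adjusted p = 0.98), and 0.23 when the valine-free T-ALL 3 library was left out. At 0.4 g/kg both libraries were above both controls, with 0.64 ± 0.34 (limma adjusted p = 0.80).

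Against the mean of 0.4 and 0.8 g/kg, all 5 H1 genes had negative RPF differences at 0 g/kg (50.8% of genes did), -1.24 for Hist1h1e, -0.88 for Hist1h1b, -0.77 for Hist1h1c, -0.67 for Hist1h1a and -0.64 for Hist1h1d. By limma 3 of them, Hist1h1b, Hist1h1c and Hist1h1e, were at an unadjusted p under 0.05, where 2.79% of genes stood on the lower side, and 0 of 5 passed adjusted over all genes (0% did). At 0.4 and 0.8 against 8 g/kg the RPF differences ran from -0.19 to 0.64 and from -0.10 to 0.59, with 0 of 5 passing and 0 at an unadjusted p under 0.05 (6.67% and 5.58% of genes in either direction). The F test among the diets passed for 0 of 5, with limma adjusted p from 0.82 to 0.92; Hist1h1e alone was at an unadjusted p under 0.05, as were 483 of the 9718 genes. The median of all RPF genes was 0.12 at 0, 0.08 at 0.4 and 0.30 at 0.8 against 8 g/kg. After centring each library on its median it was -0.04 at 0 g/kg. The 3 comparisons with 8 g/kg in a fraction share their 2 control libraries.

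**Figure D3:**
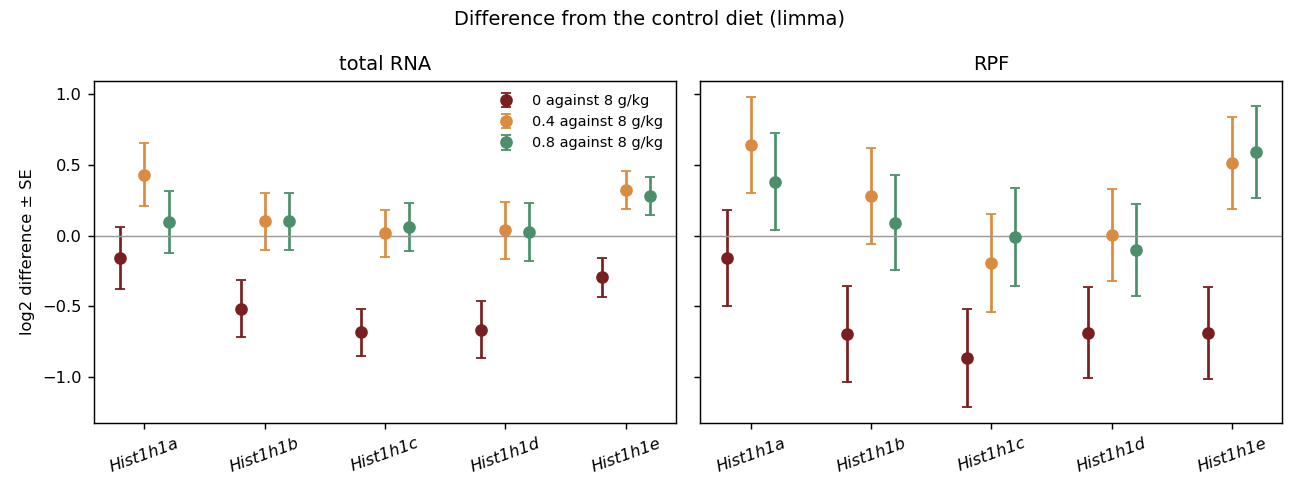
Log2 differences from the control diet (y axis, bars are SE from limma's moderated variance over 8 libraries) for each H1 gene (x axis) in total RNA and in RPF. The 0 g/kg points are below 0 for all 5 genes, from -0.68 to -0.15 in total RNA and from -0.87 to -0.16 in RPF (54% and 43.2% of genes are below 0), and the 0.4 and 0.8 g/kg points lie around or above 0.

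As a group, the H1 genes took 59.2 (T-ALL 2) and 48.8 (T-ALL 3) of 10000 total RNA reads at 0 g/kg. The share was 88.9 and 74.8 at 0.4 g/kg, 73.0 and 87.1 at 0.8 g/kg, and 65.0 and 85.1 at 8 g/kg. The 0 g/kg shares were the 2 lowest, and their 95% Wilson intervals, 57.4 to 61.0 and 46.8 to 51.0, did not reach that of the next library, 63.6 to 66.4; these intervals cover counting error only. Per 10000 RPF reads the H1 genes had 138 and 114 on the valine-free diet, 199 and 216 at 0.4 g/kg, 162 and 219 at 0.8 g/kg, and 179 and 220 at 8 g/kg. Here too the libraries without valine were the low ones.

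The core histones had low values in the same libraries. Per 10000 total RNA reads they had 210.0 and 208 on the valine-free diet and 261 and 314 on the control diet. Of 56 core histone genes 54 had a negative log2 difference in total RNA at 0 against 8 g/kg, with a median of -0.51, beside -0.52 for the 5 H1 genes and -0.04 for all 10054 genes. Of all genes 54% were negative there. None of the 56 passed limma's adjusted test (0% of all genes did). At an unadjusted p under 0.05 on the lower side stood 38, beside 4.02% of all genes. In RPF 45 of 53 were lower, beside 43.2% of all genes. Their median was -0.78, beside -0.69 for H1 and 0.12 for all genes. The H1 share of all replication-dependent histone FPKM accordingly kept within a narrow range: 13.0% to 15.7% over the 8 total RNA libraries and 18.0% to 21.6% over the 8 RPF libraries. In T-ALL 2 total RNA it was 15.7% at 0 g/kg and 13.7% at 8 g/kg, and in T-ALL 3 it was 13.0% and 14.5%, so it had no common direction with diet.

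**Figure D4:**
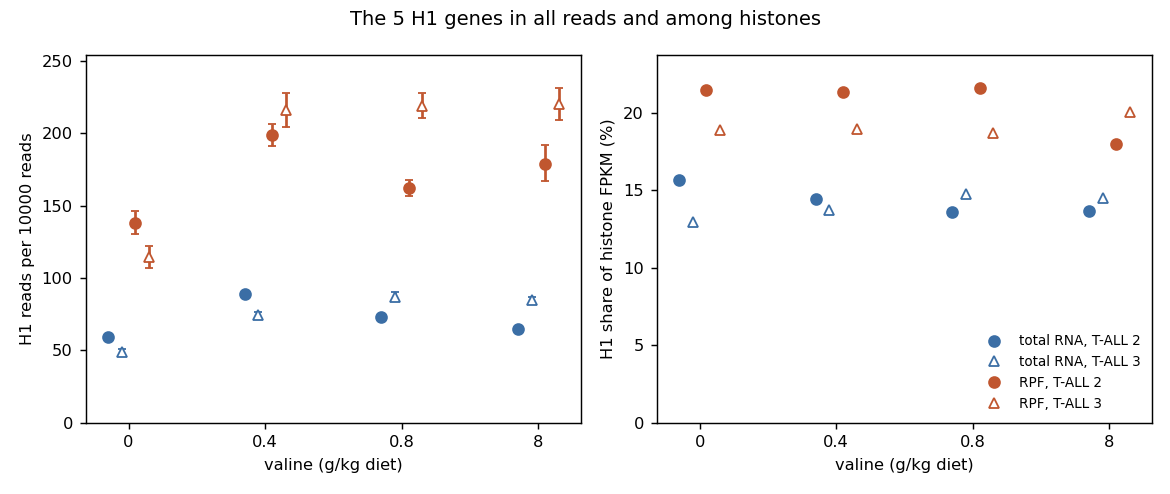
Reads of the 5 H1 genes per 10000 reads of each library with 95% Wilson intervals (left) and their share of the summed H1 and core histone FPKM in percent (right), by valine in g/kg. The 0 g/kg libraries hold the lowest H1 read shares of each fraction, while the H1 share among histones stays at 13.0% to 15.7% in total RNA and 18.0% to 21.6% in RPF.

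Linker histones that are not tied to replication were much less abundant. H1f0, the variant of resting and differentiated cells, had 40.5 and 33.7 FPKM at 0 g/kg and 59.3 and 85.5 at 8 g/kg in total RNA, a log2 difference of -0.94 ± 0.22 (limma adjusted p = 0.35). It was thus low in the same 2 libraries. H1fx had 8.88 and 45.6 FPKM against 36.7 and 51.1, at -1.07 ± 0.74 (limma adjusted p = 0.87). Their RPF reads, 1 to 19 and 0 to 18 per library, were too few to describe by diet.

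Genes of histone mRNA processing and transcription had differences on both sides of 0 on the valine-free diet. Total RNA of 23 of 26 listed genes passed the filter, 14 with positive and 9 with negative differences and a median of 0.11. Of all 10054 genes 54% were negative. By limma 0 of the 23 passed in either direction. Slbp, the stem-loop binding protein, had 0.62 ± 0.21, Gon4l 0.51 ± 0.25, and the exonuclease Xrn1 -0.45 ± 0.31. At an unadjusted p under 0.05 stood 1 of the 23, Slbp, on the higher side, as did 258 of all 10054 genes. Among 14 tested H1 chaperones and chromatin factors 6 were positive and 8 negative, near the share of all genes, with a median of -0.04. By limma 0 passed (0 also at an unadjusted p under 0.05). Nasp, a chaperone of H1 and H3-H4, had 0.34 ± 0.18, the heterochromatin protein Cbx5 0.39 ± 0.30, and Anp32e, a chaperone of a variant H2A, -0.38 ± 0.18.

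DNA replication and S phase genes had positive differences for 29 of 35 members, with a median of 0.18 in total RNA at 0 against 8 g/kg. Of all 10054 genes 4619 were positive. None of the list passed by limma and 3 stood at an unadjusted p under 0.05, all positive, as did 258 of all genes. The licensing factor Cdc6 had 0.98 ± 0.27, the assembly chaperone subunit Chaf1a 0.61 ± 0.28 and the helicase factor Cdc45 0.60 ± 0.26. Their median in total RNA thus had the opposite sign to that of H1. In RPF 19 of the 35 were positive, with a median of 0.19, beside 5227 of all 9718 genes. There Cdc6 had -0.51 ± 1.04, Chaf1a 0.77 ± 0.49 and Cdc45 1.37 ± 1.04. In total RNA, mitosis genes had negative differences for 13 of 20, with a median of -0.27, and 54% of all genes were negative. By limma 0 passed and 2 stood at an unadjusted p under 0.05 (4.02% of all genes stood there on the lower side). These were Cdc20 at -1.10 ± 0.27 and Ccnb2 at -1.07 ± 0.24, and Birc5 had -0.60 ± 0.30. Of 8 replacement histones, which are made outside replication too, 5 were negative, beside the same 54% of all genes, with a median of -0.18. H2afx had -0.74 ± 0.12 (limma adjusted p = 0.17), Cenpa -0.45 ± 0.32 and H2afj -0.33 ± 0.20.

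Markers of other cells differed between the same diets. The 10 neutrophil markers in the table summed to 2.22 to 4.65 per 10000 total RNA reads on the valine-free diet and 0.165 to 0.173 on the control diet, where Mpo had 0 reads in both libraries. In RPF they summed to 3.28 to 25.9 per 10000 at 0 g/kg and 0.239 to 0.420 at 8 g/kg, where 7, among them Mpo, Elane and S100a9, had 0 reads. The 10 erythroid markers summed to 0.280 to 0.298 per 10000 total RNA reads at 0 g/kg, where Hbb-bt and Alas2 had 0 reads, and 1.69 to 4.23 at 8 g/kg. In RPF the erythroid sum was 0.871 to 2.65 at 0 g/kg and 4.54 to 17.2 at 8 g/kg. Their part in the H1 values was not tested. In such bulk samples fewer cells in S phase and less H1 mRNA per cell cannot be told apart.

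The order of the H1 genes depended on the gene length behind the FPKM values. By deposited FPKM, the mean over 8 total RNA libraries (± SD) was 2256 ± 540 for Hist1h1d, 2146 ± 467 for Hist1h1b, 1694 ± 392 for Hist1h1c, 1658 ± 357 for Hist1h1a and 1301 ± 250 for Hist1h1e. The step of 1 read shows that the length used for Hist1h1c was 2.10 times that for Hist1h1b, whereas its RefSeq gene is 725 bases long against 794. With reads divided by RefSeq gene length, an alternative chosen after seeing the data, Hist1h1c made up 34.6% of the summed H1 level in total RNA instead of 18.6%, and it was above Hist1h1b in 8 of 8 libraries instead of 0. The neighbours Hist1h1d and Hist1h1b differed by 0.07 ± 0.07 (log2, SD over 8 libraries) by deposited length, no more than the spread, with Hist1h1d the higher in 7 of 8 libraries, and in 8 of 8 by RefSeq length (0.10). Hist1h1c and Hist1h1a differed by 0.02 ± 0.30 by deposited length, within the spread. Hist1h1e was below Hist1h1a in 8 of 8 libraries by deposited length and in 7 of 8 by RefSeq length.

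In RPF the deposited means were 6538 ± 1780 FPKM for Hist1h1b, 6011 ± 1338 for Hist1h1d, 3519 ± 914 for Hist1h1a, 2836 ± 842 for Hist1h1c and 867 ± 318 for Hist1h1e. Hist1h1e thus made up 14.5% of the H1 level in total RNA and 4.32% in RPF, or 12.0% and 3.73% by RefSeq length. By RefSeq length Hist1h1c had 27.9% of the H1 level in RPF, level with Hist1h1b at 27.9% and above Hist1h1d at 26.5%. Hist1h1b went the other way, from 23.7% in total RNA to 32.8% in RPF by deposited length and from 19.1% to 27.9% by RefSeq length.

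Relative to their RNA, 4 of the H1 genes had high footprint levels, and Hist1h1e lay below them, near the median of all genes. For each pair of libraries of the same diet and T-ALL number, the log2 RPF level minus the log2 total RNA level was taken, the measure of translational efficiency (TE) that the study's design points to. Over 8 pairs it was 1.59 ± 0.16 (SD) for Hist1h1b, 1.42 ± 0.10 for Hist1h1d, 1.07 ± 0.16 for Hist1h1a and 0.72 ± 0.29 for Hist1h1c, that is 3.00, 2.67, 2.10 and 1.65 times as high in RPF as in total RNA. It was -0.66 ± 0.36 for Hist1h1e, or 0.634 times. The first 4 were above 0 in 8 of 8 pairs and Hist1h1e in 0 of 8, and the value of Hist1h1e was below that of each other H1 gene in all 8 pairs. The folds depend on how the 2 fractions are scaled to each other. With each library centred on its median the values were 1.87 for Hist1h1b, 1.71 for Hist1h1d, 1.36 for Hist1h1a, 1.01 for Hist1h1c and -0.37 for Hist1h1e.

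By limma 4 of the 5 were higher in RPF than in total RNA over the 4 diets, where 3.41% of the 9361 genes tested were called higher and 9.71% in either direction. The adjusted p was 0.00774 for Hist1h1b, 0.0131 for Hist1h1d, 0.0186 for Hist1h1a and 0.0489 for Hist1h1c, and 0.11 for Hist1h1e. An exact sign permutation test over the 8 pairs, two-sided, gave p = 0.00781 for each of the 5, the smallest it allows. It sets the values against 0, a point that depends on how the fractions are scaled. Hist1h1e, near the median of all genes, reached the same p, so this test does not mark a level as high. How many of all genes reach this p was not counted. All genes tested had a median of -0.59, so Hist1h1b, Hist1h1d, Hist1h1a and Hist1h1c ranked at percentiles 99.7, 99.4, 98.01 and 94.4 and Hist1h1e at 47.3. The core histones had a median of 0.31 over 53 genes, of which 17 were called higher and 2 lower. Leaving out 1 library pair left the differences between 1.56 and 1.62 for Hist1h1b, and between 0.63 and 0.81 for Hist1h1c, but fewer calls: 0 of 5 passed without either 0.4 g/kg pair or either 8 g/kg pair, 1 without either 0 g/kg pair, and 2 without either 0.8 g/kg pair. Over the whole table those fits called 1 to 46 genes instead of 909. FPKM divides by 1 gene length in both fractions although footprints come from coding sequence. The labels list total RNA as the molecule of 1 fraction and polyA RNA as that of the other. H1 mRNAs, as described above, typically end in a stem-loop instead of a poly(A) tail. The split of reads between single H1 genes is uncertain, as said above, and Hist1h1e had only 23 to 154 RPF reads per library. The part of these points in the levels was not tested, so the levels cannot be read as translation alone.

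**Figure D5:**
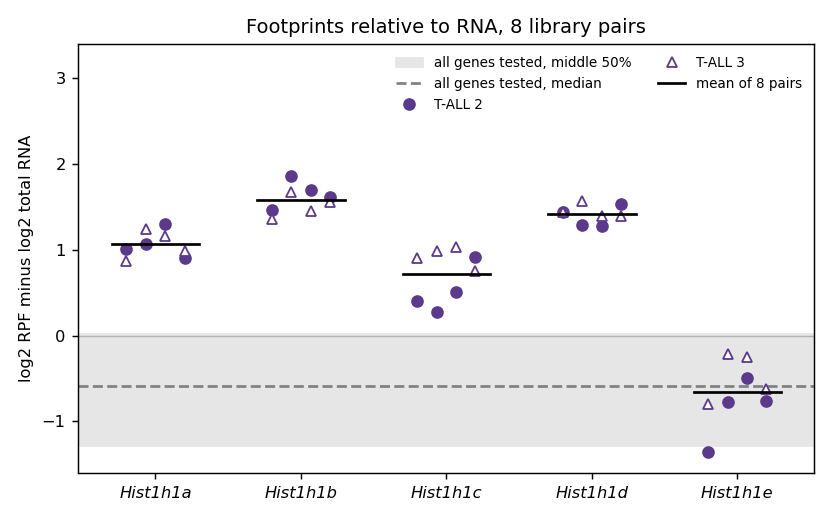
Log2 RPF minus log2 total RNA (y axis) for the 8 library pairs of each H1 gene, in order of valine dose from left to right within a gene, with filled circles for T-ALL 2, open triangles for T-ALL 3 and a bar at the mean. The dashed line and grey band are the median (-0.59) and the quartiles (-1.29 and 0.01) of all 9361 genes tested; 4 H1 genes lie above the band and Hist1h1e lies within it in 7 of 8 pairs.

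No difference between diets in TE passed the test for any H1 gene. At 0 against 8 g/kg the differences in TE were -0.39 ± 0.70 (SE) for Hist1h1e, -0.18 ± 0.50 for Hist1h1c, -0.18 ± 0.39 for Hist1h1b, -0.02 ± 0.39 for Hist1h1d and -0.01 ± 0.40 for Hist1h1a. By limma 0 of 5 passed (0% of genes), 0 stood at an unadjusted p under 0.05 (6.58% of genes did), and the adjusted p was 0.975 to 0.999. At 0 against the mean of 0.4 and 0.8 g/kg they ran from -0.64 to 0.06, with 0 of 5 passing by limma and 0 at an unadjusted p under 0.05 (4.6% of genes). At 0.4 and 0.8 against 8 g/kg 0 of 5 were at an unadjusted p under 0.05 either (6.68% and 6.23% of genes). With SEs of 0.39 to 0.70, the test could not show TE differences of that size.

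Among themselves, the H1 genes varied together over the 8 total RNA libraries, as a description with no test. Pearson's r of log2 levels was 0.89 to 0.99 for the pairs among Hist1h1b, Hist1h1c, Hist1h1d and Hist1h1e, and 0.63 to 0.79 for Hist1h1a with each of the others. In RPF the pairs of the first 4 had 0.62 to 0.93 and those of Hist1h1a 0.36 to 0.85. The genes most like the mean of the H1 genes over the 8 total RNA libraries were Hist1h3a (r = 0.98), Hist1h2be (0.98), Hist1h2ai (0.97), N4bp2 (0.97), Ndufs4 (0.97) and Ndufb3 (0.96), out of 5530 genes with a mean of at least 10 FPKM, whose median r was 0.08. Core histones had a median r of 0.86 there. Over the 8 RPF libraries they were Hist1h2be (0.96), Mast2 (0.95), Gadd45gip1 (0.95), Scaf8 (0.95), Hist1h2bc (0.95) and Tssc4 (0.94), out of 5048 genes with a median r of 0.019, and core histones had a median of 0.70. All these values share the same libraries and their depth.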

How the data were processed

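The deposited table gives FPKM values per gene and library, made by the authors, for 12012 genes in 8 total RNA and 8 RPF libraries. The submitters' processing notes name STAR 2.5.0c, Bowtie2 2.3.4, edgeR 3.14.0 and cutadapt 1.18, with the builds mm10 and GRCm38. What each did, how reads were counted and the FPKM formula used are not given in the sources. Whole reads were recovered from the steps of the FPKM values (100% of 149988 values above 0 within 0.0005 reads of a whole number). On reads simulated around the recovered counts themselves, the recovery returned all true counts for 97.87% of genes. That simulation takes over the recovered depths, so it cannot show a depth ratio that is wrong by a whole factor. At random depths far apart the recovery mostly failed, because depth ratios between libraries came out wrong by whole factors. An even factor of this kind distorts the share of odd counts, which was 51.8% to 58.8% here. An odd factor can leave that share unchanged. A count of 1 was more frequent than 2 in 16 of 16 libraries. These checks were added after the data were seen.

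Levels were taken as log2(FPKM + 0.5) for genes with a mean of at least 1 FPKM. Each fraction, and the paired difference of log2 values (TE), was fitted by limma 3.58.1 in R 4.3.3, diet being the factor, with a mean-variance trend. Fold changes are on that scale. The total RNA and RPF fits were tested on simulated data, at 0 against 8 g/kg. There the RPF fit found few of the changes put in and made more false calls than its threshold aims at. RPF calls, made or missing, thus say little. The TE fit, which uses the RPF values, was not tested on simulated data. Tests were two-sided and p-values adjusted by Benjamini-Hochberg over all genes tested, at 0.05. An exact test of 2 libraries against 2 cannot reach 0.05 (its smallest two-sided p is 0.333), so the diet comparisons rest on limma. SEs come from the moderated variance over 8 libraries. The members and gene lists were chosen with earlier results of these data known. The named genes are the H1 genes, up to 3 per list with the largest difference in total RNA at 0 against 8 g/kg, and the 6 most like in pattern. Markers named for having 0 reads (Mpo, Elane, S100a9, Hbb-bt, Alas2) were chosen after their values were seen. Of the marker lists, summed levels are given for T cells, neutrophils and erythroid cells, and the others are not reported here. Reads of closely related genes, and p-values over related libraries, carry the limits named in the text.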

Additional observations from a re-analysis of the deposited data

How the results depend on the processing

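Of the 5 H1 genes 0 were called in any comparison of diets, in total RNA, RPF or TE, by limma under every alternative run: pseudocounts of 0.1 and 1, no filter, median centring, voom on recovered reads, the replicate block (T-ALL number), each library left out, and for TE 1 model over 16 libraries. For RPF against total RNA, members called numbered 4 in the main setting, 3 without the filter, 3 with a pseudocount of 0.1, 3 with the replicate block, 5 with voom and 5 in 1 model over 16 libraries, and 0 to 2 with a library pair left out. With all libraries kept, Hist1h1c was the gene that lost its call, at 0.72. Its limma adjusted p was 0.0643, 0.0566 and 0.0655 with the lower pseudocount, no filter and the block. Hist1h1e gained a call, at -0.41 (limma adjusted p = 0.0248) with voom and -0.66 (limma adjusted p = 0.00282) in 1 model. With a library pair left out, Hist1h1a, Hist1h1b and Hist1h1d lost calls too. All genes called there were 909, but 374 with a pseudocount of 0.1, 239 with the block, 2703 with voom and 2183 in 1 model. For diets, where 0 were called, voom called 3 and 6 genes at 0 against 8 g/kg in total RNA and RPF, 8 and 16 at 0 against the mean of 0.4 and 0.8 g/kg, and 2 and 5 in the F test; 1 model over 16 libraries called 12, 10 and 16 for TE at 0, 0.4 and 0.8 against 8 g/kg, 4 at 0 against the mean, and 21 in the F test. Libraries left out gave up to 67 genes called (RPF, 0 against the mean). The T-ALL numbers were not taken as pairs, since correlations of same-numbered deviations were -0.04 to 0.25 in total RNA and -0.02 to 0.07 in RPF; the replicate block changed no other H1 call.

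Differences that changed sign were small. In RPF, Hist1h1d at 0.4 against 8 g/kg was -0.021 with centring and -0.12 with voom, and Hist1h1b at 0.8 g/kg -0.091 and -0.089. For TE, Hist1h1c at 0 against the mean was 0.068 with voom. With a library left out, ranges that crossed 0 were, in total RNA, -0.48 to 0.17 for Hist1h1a at 0 g/kg; -0.10 to 0.30, -0.20 to 0.23 and -0.19 to 0.27 for Hist1h1b, Hist1h1c and Hist1h1d at 0.4 g/kg; and -0.11 to 0.31, -0.11 to 0.31, -0.15 to 0.28 and -0.21 to 0.26 for Hist1h1a, Hist1h1b, Hist1h1c and Hist1h1d at 0.8 g/kg. In RPF they were -0.55 to 0.23 for Hist1h1a at 0 g/kg; -0.40 to 0.020 and -0.15 to 0.17 for Hist1h1c and Hist1h1d at 0.4 g/kg; and -0.081 to 0.27, -0.36 to 0.34 and -0.32 to 0.12 for Hist1h1b, Hist1h1c and Hist1h1d at 0.8 g/kg. For TE they were -0.070 to 0.059, -0.44 to 0.071 and -0.094 to 0.050 for Hist1h1a, Hist1h1c and Hist1h1d at 0 against 8 g/kg, and -0.30 to 0.21 and -0.012 to 0.13 for Hist1h1c and Hist1h1d at 0 against the mean. The H1 share of histones was 20.5% of reads instead of 14.2% of FPKM in total RNA, and 26.5% instead of 19.9% in RPF; with reads, longer genes weigh more. RPF depth limits Hist1h1e most.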
